A study of Mus musculus with 8 samples.

Results

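A set of 10 genes of prostaglandin synthesis, breakdown and signalling were followed in mouse portal fibroblasts that received a Klf4 lentivirus. They were taken by symbol from the 32859 genes of the count table, and all 10 were present: Ptgs1, Ptgs2, Ptges, Ptgis, Ptgds, Hpgd, Ptger1, Ptger2, Ptger3 and Ptger4. The data were RNA-seq counts from 8 libraries, 4 labelled Lenti-Klf4 (virus carrying Klf4) and 4 labelled Lenti-Ctrl (control virus). Every library came from primary hepatic cells of normal Clec3bCreERT2;R26tdT mice, in which the Clec3b gene drives an inducible Cre recombinase and a red reporter (tdT) marks the cells, and reporter-positive cells were sorted before transduction. The comparison asks how KLF4 acts on the change of these fibroblasts into myofibroblasts. The sources used here give neither the age and number of the mice, nor the time after transduction, nor whether replicates came from separate mice or cultures, and p-values measure the spread between libraries only.

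Prostaglandins are lipid mediators made from arachidonic acid. The cyclooxygenases COX-1 (Ptgs1), present in many resting cells, and COX-2 (Ptgs2), induced by cytokines and growth factors, turn arachidonic acid into prostaglandin H2, which terminal synthases convert into PGE2, prostacyclin or PGD2. PGE2 acts through the receptors EP1 to EP4, of which EP2 and EP4 raise cyclic AMP, a signal known to restrain fibroblast activation, and 15-hydroxyprostaglandin dehydrogenase (Hpgd) inactivates it.

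Promoter windows are shown for Ptgs1 and Ptgs2, which changed in opposite directions, and for Ptges and Ptger4, called in the same direction as Ptgs1. They were picked by direction of change, so the marked letters do not compare genes called higher with genes called lower. KLF4 is a zinc-finger factor known to bind CACCC-type and GC-rich DNA. The RefSeq promoter table (build GRCm38.p6, 250 bases before to 50 after a gene's start) held 8 of the 10 genes, and Ptgis and Ptger1 had no entry. In the windows of Ptgs1 (chr2:36230176-36230475, plus strand), Ptges (chr2:30903248-30903547, minus strand) and Ptger4 (chr15:5244138-5244437, minus strand), capitals mark CACCC or its reverse complement GGGTG. In the window of Ptgs2 (chr1:150099781-150100080, plus strand), capitals mark the overlapping letters CGTCA, the core of a cyclic AMP response element, and CACGTG, an E-box.
Ptgs1: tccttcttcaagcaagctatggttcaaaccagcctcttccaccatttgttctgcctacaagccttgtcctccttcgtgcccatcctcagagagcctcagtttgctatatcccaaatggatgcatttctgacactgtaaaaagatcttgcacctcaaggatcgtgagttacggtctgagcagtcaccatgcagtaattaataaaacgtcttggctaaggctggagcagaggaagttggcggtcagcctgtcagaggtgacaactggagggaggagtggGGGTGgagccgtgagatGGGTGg
Ptges: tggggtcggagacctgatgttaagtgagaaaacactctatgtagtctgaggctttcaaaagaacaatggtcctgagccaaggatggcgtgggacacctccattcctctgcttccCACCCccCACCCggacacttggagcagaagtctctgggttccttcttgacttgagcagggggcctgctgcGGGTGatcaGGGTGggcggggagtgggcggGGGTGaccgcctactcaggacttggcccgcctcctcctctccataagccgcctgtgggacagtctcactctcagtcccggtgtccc
Ptger4: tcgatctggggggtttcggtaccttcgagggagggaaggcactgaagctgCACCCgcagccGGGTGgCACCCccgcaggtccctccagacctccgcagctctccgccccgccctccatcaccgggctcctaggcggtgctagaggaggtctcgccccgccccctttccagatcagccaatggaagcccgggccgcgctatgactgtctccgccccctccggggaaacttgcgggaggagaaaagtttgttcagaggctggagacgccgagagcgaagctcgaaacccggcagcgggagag
Ptgs2: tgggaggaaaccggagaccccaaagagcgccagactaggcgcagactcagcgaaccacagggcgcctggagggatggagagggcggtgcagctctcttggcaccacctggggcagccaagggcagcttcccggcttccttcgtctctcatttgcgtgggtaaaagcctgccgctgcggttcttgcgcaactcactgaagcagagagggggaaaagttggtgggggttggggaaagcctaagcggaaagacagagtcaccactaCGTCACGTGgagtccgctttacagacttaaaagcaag

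CACCC, searched on both strands, occurred 2 times in the Ptgs1 window, 5 times in Ptges, 3 times in Ptger4 and 2 times in Ptgds. Hpgd, a gene called lower, held it 1 time. The 2 Ptgs1 matches begin at bases 28 and 45 after the annotated start, not upstream of it. The windows of Ptgs2, Ptger2 and Ptger3 held none. Of all 32851 windows in the table, 57.5% held it, and the share was 60.9% for windows of genes called higher in Lenti-Klf4 and 65.8% for windows of genes called lower. GGGCGG (GC box, both strands), of which 1 match in Ptges shares a base with a GGGTG, occurred 4 times in Ptger4, 3 times in Ptger3, 2 times in Ptges and 1 time each in Ptgs2 and Hpgd, so in 5 of the 8 windows. It lay in 35.7% of all windows, in 59.9% of those of genes called higher and in 59.1% of those of genes called lower. The Ptgs2 letters CGTCA and CACGTG begin at bases 14 and 17 after the annotated start. CGTCA (both strands) and CACGTG lie in 20.8% and 7.15% of all windows. The shares were 30.9% and 10.9% for windows of genes called higher and 26.7% and 8.06% for windows of genes called lower. These matches describe letters in a window and do not show binding.

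Normalised read counts (CPM, counts scaled to library size with TMM factors) were compared with edgeR's quasi-likelihood test, with Benjamini-Hochberg adjustment over 18439 tested genes and a threshold of 0.05. Of the 9 prostaglandin genes that passed the filter on low counts, Ptgs1, Ptges and Ptger4 were higher in Lenti-Klf4 and Ptgs2, Ptgis, Hpgd, Ptger2 and Ptger3 were lower. Ptger1 was not called, and Ptgds had too few counts to be tested. Most of the transcriptome was called in this comparison (72.2% of tested genes, with 37.5% higher and 34.7% lower), so a call by itself does not set these genes apart. The median log2 fold change was -1.07 for the 9 genes and 0.03 for all tested genes. CPM ranges of the 2 groups did not overlap for 7 of the 9 genes, against 69.2% of all tested genes.

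**Figure D1:**
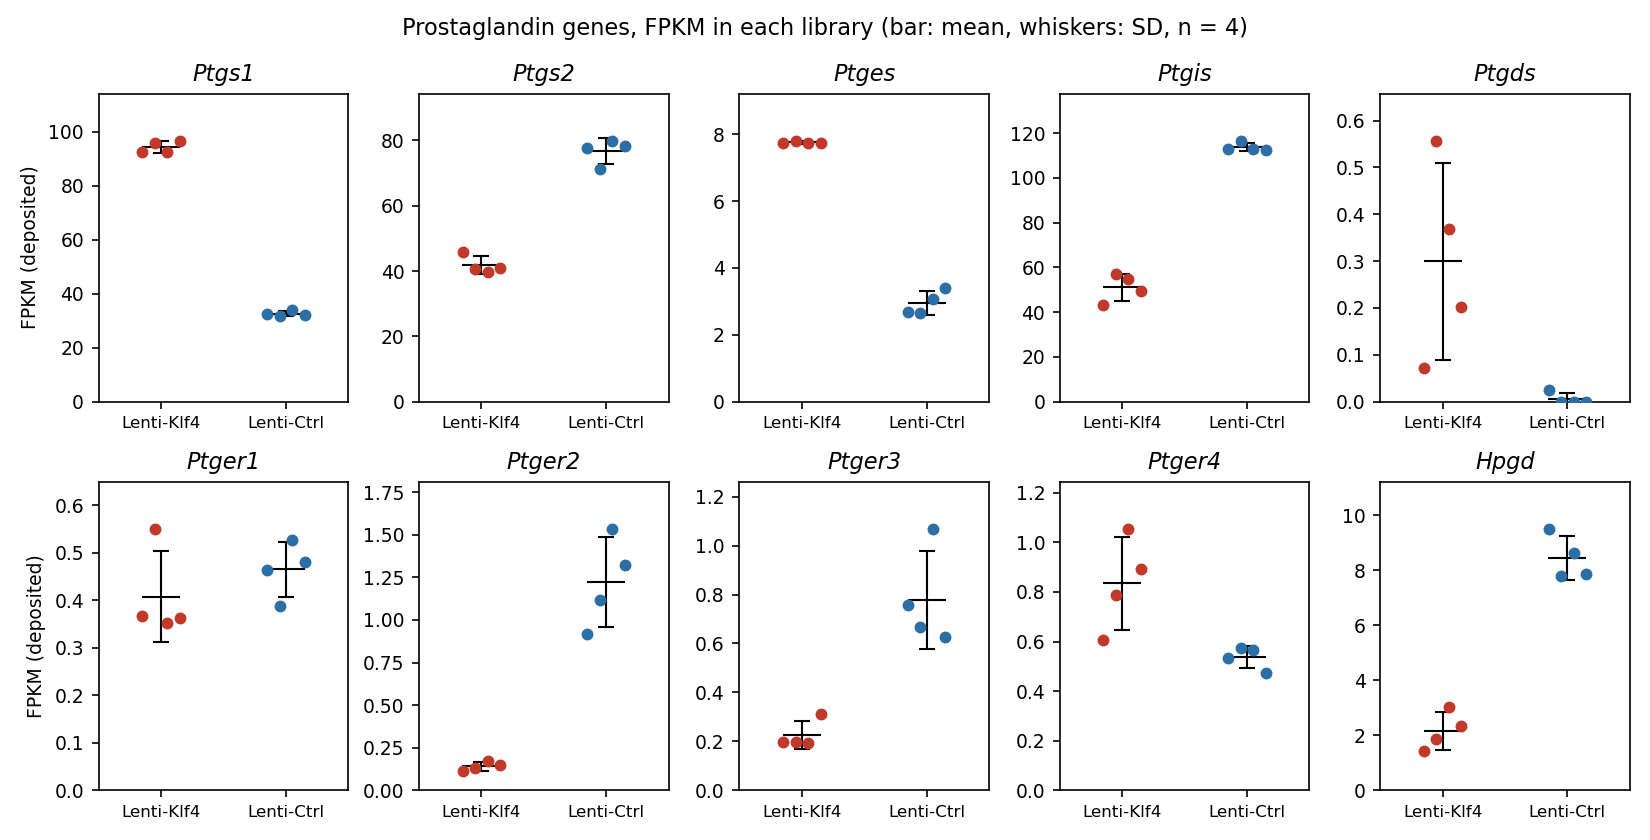
Deposited FPKM of the 10 prostaglandin genes in each library, with Lenti-Klf4 on the left of each panel and Lenti-Ctrl on the right; points are libraries, the black bar is the mean and the whiskers the SD (n = 4). On this scale the groups overlap in the panel of Ptger1 and in no other, with 8.44 FPKM for Hpgd in Lenti-Ctrl against 2.15 FPKM in Lenti-Klf4. No TMM factors were applied to these values, and by CPM with TMM factors the groups of Ptger4 overlap too.

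The libraries held 57950960 to 82847723 counts in Lenti-Klf4 and 57306334 to 87361995 in Lenti-Ctrl, and replicate 1 was the deepest of each group. Klf4 itself had 201, 241, 234 and 235 CPM in the Lenti-Klf4 libraries and 86.8, 92.3, 83.0 and 87.1 CPM in the Lenti-Ctrl libraries, with no overlap. Vector and endogenous Klf4 RNA cannot be told apart in these counts. The numbers of cell type markers called below stand beside 37.5% higher and 34.7% lower over all tested genes. A count near those shares does not set a marker list apart. Fibroblast markers were present in both groups, with 12 genes summing to 11860.4 to 13562 CPM in Lenti-Klf4 and 28499 to 30026 CPM in Lenti-Ctrl (2 of 11 tested higher, 9 lower), although Clec3b, the gene behind the reporter, had 73 and 4 counts in all. Macrophage and leukocyte markers, which were lower for 17 of 17 tested genes, summed to 176 to 245 CPM in Lenti-Klf4 and 5555 to 5969 CPM in Lenti-Ctrl, and Cx3cr1, Clec4f and Timd4 had no counts in Lenti-Klf4. Endothelial markers (11 of 11 lower) summed to 43.5 to 54.7 CPM in Lenti-Klf4 and 437 to 441 CPM in Lenti-Ctrl, with Clec4g at 0 in Lenti-Klf4. Mesothelial markers (7 of 10 higher, 3 lower) summed to 579.7 to 698 CPM in Lenti-Klf4 and 199 to 212 CPM in Lenti-Ctrl. Mast cell and platelet markers summed to 5.17 to 9.99 CPM in Lenti-Klf4 and 41.5 to 43.4 CPM in Lenti-Ctrl (2 of 5 higher, 2 lower), and Mcpt4 and Tpsb2 had no counts in Lenti-Ctrl. Pf4 (1.60 CPM in Lenti-Klf4, 34.3 CPM in Lenti-Ctrl) made up most of the Lenti-Ctrl sum. It and Kit were lower, while Itga2b and Hdc were higher. Of stellate cell markers, 8 of 10 were lower (108 to 152 CPM in Lenti-Klf4, 728 to 750.1 CPM in Lenti-Ctrl), and of cholangiocyte markers 4 of 10 were higher and 2 lower (703 to 755 CPM in Lenti-Klf4, 398 to 414 CPM in Lenti-Ctrl). Spp1 made up most of the cholangiocyte sum, at 600 CPM in Lenti-Klf4 and 364 CPM in Lenti-Ctrl. Hepatocyte markers (3 of 5 higher, 2 lower) summed to 28.1 to 40.6 CPM in Lenti-Klf4 and 328 to 339 CPM in Lenti-Ctrl, where Apoa1, Ttr and Cyp2e1 had no counts. Trf (24.0 CPM in Lenti-Klf4, 294 CPM in Lenti-Ctrl) and Apob made up most of that sum and were lower, while Alb, Fgb and Hnf4a were higher. In bulk RNA, fewer cells of a type and less RNA per cell cannot be told apart, and the part of these markers in the results below was not tested.

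Of the cyclooxygenases, the mRNA of COX-1 rose and that of COX-2 fell. Ptgs1, encoding COX-1 (chromosome 2, 36120438 to 36142284, plus strand, GRCm39), was at 365, 372, 359.7 and 376 CPM in the 4 Lenti-Klf4 libraries and at 147, 144, 151 and 142 CPM in the 4 Lenti-Ctrl libraries. Every Lenti-Klf4 library lay above every Lenti-Ctrl library, and the libraries within a group were close together. The means were 368 ± 7.27 CPM in Lenti-Klf4 and 146 ± 3.78 CPM in Lenti-Ctrl (SD, n = 4 each), a rise of 2.52-fold (log2 fold change 1.33, SE 0.0297, adjusted p = 1.39e-12, edgeR).

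Ptgs2, encoding the inducible COX-2 (chromosome 1, 149975782 to 149983978, plus strand), moved the other way. It was at 214, 187, 183 and 188 CPM in Lenti-Klf4 and at 414, 379, 420.5 and 411 CPM in Lenti-Ctrl. All Lenti-Klf4 libraries were below all Lenti-Ctrl libraries, and replicate 1 was the highest in Lenti-Klf4. The mean was 2.11-fold lower, at 193 ± 14.0 CPM in Lenti-Klf4 and 406 ± 18.6 CPM in Lenti-Ctrl (log2 fold change -1.07, SE 0.0503, adjusted p = 1.03e-09, edgeR).

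Levels of different genes were set side by side per length, as the deposited FPKM. COX-1 mRNA made up 66.9%, 70.2%, 69.9% and 70.2% of the summed FPKM of both cyclooxygenases in the Lenti-Klf4 libraries and 29.5%, 30.9%, 29.7% and 29.0% in the Lenti-Ctrl libraries. The ratio of Ptgs1 to Ptgs2 was thus 2.26 ± 0.164 in Lenti-Klf4 and 0.424 ± 0.0168 in Lenti-Ctrl (SD, n = 4 each), above 1 in every Lenti-Klf4 library and below 1 in every Lenti-Ctrl library. The sum itself changed less, with 136 ± 2.84 FPKM in Lenti-Klf4 and 109 ± 4.54 FPKM in Lenti-Ctrl. No TMM factors were applied to FPKM, and a fit on log2(FPKM + 0.1) shifted log2 fold changes by a median of 0.20 towards Lenti-Klf4. The sums are therefore not read as a rise of cyclooxygenase mRNA, while shares and ratios within a library are not affected by library scaling.

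**Figure D2:**
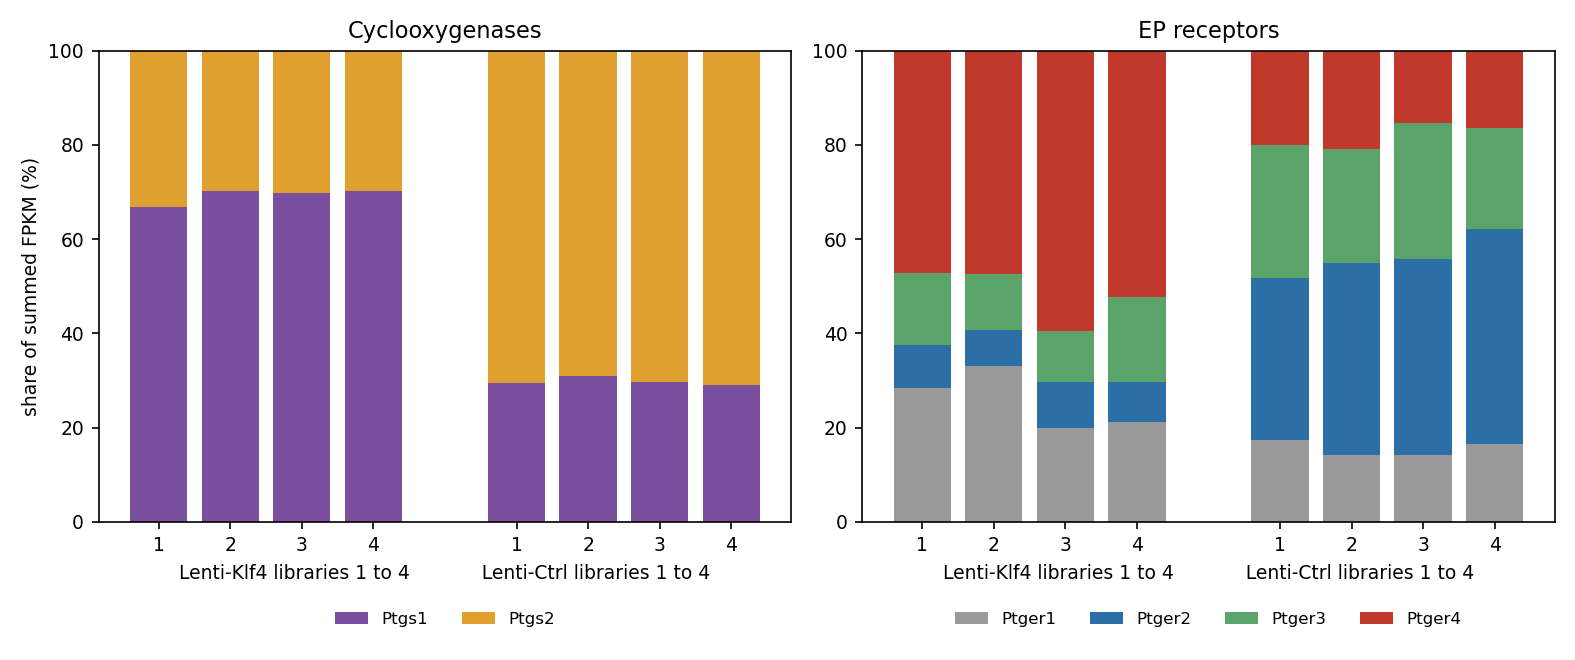
Share of summed FPKM (percent) held by each cyclooxygenase (left) and each EP receptor (right) in every library, with the 4 Lenti-Klf4 libraries on the left of each panel and the 4 Lenti-Ctrl libraries on the right. Ptgs1 holds 66.9% or more of the cyclooxygenase signal in Lenti-Klf4 and 30.9% or less in Lenti-Ctrl, and Ptger4 holds the largest EP share in Lenti-Klf4 while Ptger2 holds it in Lenti-Ctrl.

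Of the terminal synthases, the one for PGE2 rose and the one for prostacyclin fell. Ptges, encoding the inducible microsomal PGE synthase (chromosome 2, 30779483 to 30793309, minus strand), was at 30.9, 30.8, 30.6 and 30.4 CPM in Lenti-Klf4 and at 12.3, 12.1, 13.9 and 15.2 CPM in Lenti-Ctrl. The Lenti-Klf4 libraries were nearly identical and all above the Lenti-Ctrl libraries. The means were 30.7 ± 0.211 CPM in Lenti-Klf4 and 13.4 ± 1.49 CPM in Lenti-Ctrl (2.29-fold, log2 fold change 1.20, SE 0.0793, adjusted p = 2.82e-08, edgeR).

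Ptgis, encoding prostacyclin synthase (chromosome 2, 167033725 to 167082524, minus strand), was at 113, 147, 141 and 127 CPM in Lenti-Klf4 and at 338, 348, 333 and 331 CPM in Lenti-Ctrl. There was no overlap, and replicate 1 was the lowest in Lenti-Klf4. It was 2.56-fold lower, at 132 ± 15.0 CPM in Lenti-Klf4 and 337 ± 7.75 CPM in Lenti-Ctrl (log2 fold change -1.35, SE 0.0663, adjusted p = 1.57e-09, edgeR). Prostacyclin synthase is also an endothelial enzyme, and the endothelial markers fell in the same libraries, with a median log2 fold change of -3.29; their part in the fall of Ptgis was not tested.

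Ptgds, encoding the lipocalin-type PGD synthase (chromosome 2, 25356721 to 25360058, minus strand), was near the detection limit, with 11, 58, 41 and 22 counts in Lenti-Klf4 and 4, 0, 0 and 0 counts in Lenti-Ctrl. Each Lenti-Klf4 library held more CPM than any Lenti-Ctrl library, and replicate 1 was the lowest in Lenti-Klf4 although it was the deepest. The ratio of the scaled sums, 132 counts in Lenti-Klf4 over 4 in Lenti-Ctrl, was 29.2 (95% exact interval 11.1 to 109, counting error only). All 4 Lenti-Ctrl counts came from replicate 1, and without that library no Lenti-Ctrl count was left to set a ratio. With log2(CPM + 0.1) as the measure, a two-sided exact permutation test over 70 splits reached p = 0.0286, the smallest it can give.

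Hpgd, which encodes the enzyme that starts prostaglandin breakdown (chromosome 8, 56747620 to 56774078, plus strand), fell. Its values were 2.41, 3.15, 5.09 and 3.95 CPM in Lenti-Klf4 and 18.6, 15.2, 16.6 and 15.2 CPM in Lenti-Ctrl, so that the highest Lenti-Klf4 library was well below the lowest Lenti-Ctrl library. It was 4.51-fold lower, at 3.65 ± 1.15 CPM in Lenti-Klf4 and 16.4 ± 1.60 CPM in Lenti-Ctrl (log2 fold change -2.17, SE 0.194, adjusted p = 5.01e-07, edgeR). The log2 fold changes of Ptges and Hpgd had opposite signs in all 15 alternative settings, with ranges of 1.15 to 1.39 for Ptges and -2.38 to -1.60 for Hpgd. Those settings reuse the same libraries, so the signs describe the dependence on processing only and are no further support.

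Among the PGE2 receptors, EP2 and EP3 fell, EP4 was called higher by a narrow margin and EP1 was not called. Ptger2, encoding EP2 (chromosome 14, 45225652 to 45241277, plus strand), was at 0.614, 0.691, 0.928 and 0.76 CPM in Lenti-Klf4 and at 5.56, 6.78, 9.16 and 7.89 CPM in Lenti-Ctrl. Its log2 fold change of -3.30 (SE 0.21, adjusted p = 1.95e-08, edgeR) was the most negative of the 9 tested prostaglandin genes, a 9.82-fold lower level with no overlap between groups. The size of that fold rests on a Lenti-Klf4 level near the floor, with 207 counts in all against 1770 in Lenti-Ctrl. The span of Ptger2 lies within that of Gm17173, annotated on the opposite strand, which was at 2.29 CPM in Lenti-Klf4 and 0.108 CPM in Lenti-Ctrl.

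Ptger3, encoding EP3, which lowers cyclic AMP (chromosome 3, 157272529 to 157351525, plus strand), was at 1.16, 1.16, 1.13 and 1.77 CPM in Lenti-Klf4 and at 5.03, 4.43, 7.02 and 4.10 CPM in Lenti-Ctrl. One Lenti-Klf4 library (replicate 4) stood above the other three, and all 4 were below every Lenti-Ctrl library. The gene was 3.95-fold lower (log2 fold change -1.98, SE 0.229, adjusted p = 5.76e-06, edgeR).

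Ptger4, encoding EP4 (chromosome 15, 5236142 to 5273653, minus strand), was at 4.11, 5.27, 7.04 and 5.95 CPM in Lenti-Klf4 and at 4.13, 4.44, 4.34 and 3.64 CPM in Lenti-Ctrl. The groups overlapped, since Lenti-Klf4 replicate 1 lay among the Lenti-Ctrl libraries while the other 3 were above them. The log2 fold change was 0.43 (SE 0.172, adjusted p = 0.0391, edgeR), and the exact permutation test gave p = 0.114. Leaving out any library but Lenti-Klf4 replicate 1 ended the call, with adjusted p of 0.0504 to 0.133 in 7 of 8 such fits, and 0.00809 without Lenti-Klf4 replicate 1 (0.00586 to 0.133 over all 15 alternatives). By deposited FPKM the groups did not overlap, with 0.835 ± 0.188 FPKM in Lenti-Klf4 and 0.537 ± 0.0456 FPKM in Lenti-Ctrl. No TMM factors were applied to that unit. A fit on log2(FPKM + 0.1) shifted log2 fold changes by a median of 0.20 towards Lenti-Klf4, so this separation adds no support to the call. Ptger4 shares 11676 bases with Ttc33 on the opposite strand, which was at 15.2 CPM in Lenti-Klf4 and 16.2 CPM in Lenti-Ctrl. The sources used here do not say how reads were assigned by strand, so the counts of Ptger2 and Ptger4 may hold reads of Gm17173 and Ttc33. Both were named for their position, after their values were seen.

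Ptger1, encoding EP1, which signals through calcium (chromosome 8, 84393307 to 84399382, plus strand), was at 2.05, 3.02, 1.96 and 2.00 CPM in Lenti-Klf4 and at 2.95, 2.48, 3.33 and 3.03 CPM in Lenti-Ctrl. Replicate 2 of Lenti-Klf4 fell inside the Lenti-Ctrl range and the other 3 below it. The log2 fold change was -0.39 with a 95% interval of -0.82 to 0.05 (adjusted p = 0.10, edgeR). Without Lenti-Klf4 replicate 2 it was -0.56 (adjusted p = 0.0205, and 0.0205 to 0.404 over all 15 alternatives).

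**Figure D3:**
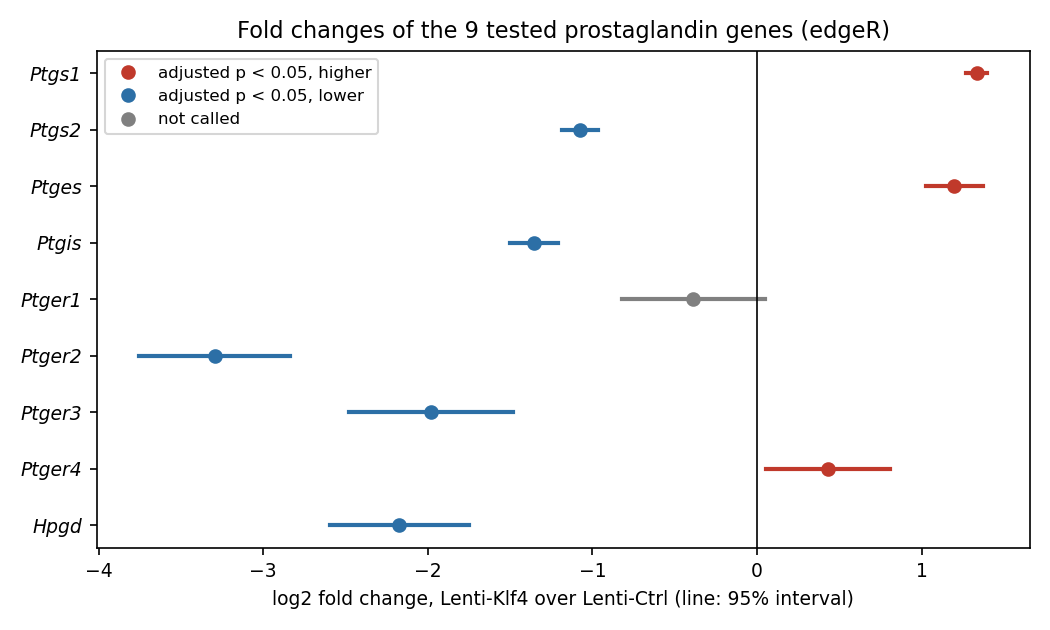
Log2 fold change of Lenti-Klf4 over Lenti-Ctrl (x axis) for the 9 tested prostaglandin genes, with points for the edgeR estimate and lines for its 95% interval; red is called higher, blue called lower and grey not called. Ptgs1 and Ptges lie right of 0 and Ptgs2, Ptgis and Hpgd left of it, while the interval of Ptger1 crosses 0.

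The summed FPKM of the 4 EP receptors was 1.29, 1.67, 1.77 and 1.71 in the Lenti-Klf4 libraries and 2.67, 2.75, 3.70 and 2.90 in the Lenti-Ctrl libraries, without overlap. Ptger4 held 51.5 ± 5.77% of that sum in Lenti-Klf4 and 18.1 ± 2.70% in Lenti-Ctrl (SD, n = 4 each). Ptger2, in turn, held 8.76 ± 0.876% in Lenti-Klf4 and 40.6 ± 4.63% in Lenti-Ctrl. Among these receptors the most abundant mRNA per length was therefore that of EP4 in Lenti-Klf4 and that of EP2 in Lenti-Ctrl. For Ptger3 the shares were 14.1 ± 3.30% in Lenti-Klf4 and 25.7 ± 3.49% in Lenti-Ctrl, and for Ptger1 they were 25.6 ± 6.23% in Lenti-Klf4 and 15.6 ± 1.64% in Lenti-Ctrl.

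Ordered by mean FPKM in Lenti-Klf4, Ptgs1 (94.3 FPKM) came before Ptgis (51.1 FPKM), Ptgs2 (41.8 FPKM), Ptges (7.75 FPKM), Hpgd (2.15 FPKM), Ptger4, Ptger1, Ptgds, Ptger3 and Ptger2. Neighbours in that order whose ranges over libraries overlapped were Ptgis and Ptgs2, Ptger1 and Ptgds, and Ptgds and Ptger3. In Lenti-Ctrl the order was Ptgis (114 FPKM), Ptgs2 (76.8 FPKM), Ptgs1 (32.6 FPKM), Hpgd (8.44 FPKM), Ptges (2.95 FPKM), Ptger2, Ptger3, Ptger4, Ptger1 and Ptgds. There the overlapping neighbours were Ptger2 and Ptger3, and Ptger4 and Ptger1. Thus Ptgs1 stood above Ptgs2 and Ptges above Hpgd in Lenti-Klf4, and both pairs were in the opposite order in Lenti-Ctrl.

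In the authors' deposited table, a DESeq2 result over 11361 genes, 5 of the 10 genes were listed. That table gave log2 fold changes of 1.25 for Ptgs1, 1.12 for Ptges, -1.16 for Ptgs2, -1.44 for Ptgis and -2.25 for Hpgd, with the same signs as above.

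Of 16 tested genes of arachidonic acid supply, 6 were higher and 6 lower in Lenti-Klf4, with a median log2 fold change of 0.11. These counts are near the shares over all tested genes (37.5% higher and 34.7% lower). Pla2g4a, encoding the cytosolic phospholipase A2 that releases arachidonic acid for the cyclooxygenases, was slightly higher at 136 ± 4.35 CPM in Lenti-Klf4 and 109 ± 1.51 CPM in Lenti-Ctrl (log2 fold change 0.32, adjusted p = 1.86e-06, edgeR), a gene chosen after its values were seen. Lower genes included Pla2g7 (log2 fold change -3.06), whose product degrades platelet-activating factor, and Mgll (-2.57), which frees arachidonic acid from an endocannabinoid. The lysosomal phospholipase gene Pla2g15 and Mboat7, which places arachidonic acid in phosphatidylinositol, were also lower, by 1.99-fold and 2.32-fold. Acsl4, which activates arachidonic acid, was not called, at 130 ± 4.02 CPM in Lenti-Klf4 and 120 ± 9.07 CPM in Lenti-Ctrl (adjusted p = 0.0661), and neither was Dagla.

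Among 10 other prostanoid enzymes, 3 were higher and 6 lower (median log2 fold change -0.26), beside 37.5% higher and 34.7% lower over all tested genes. Ptges3, a cytosolic PGE synthase and co-chaperone, was at 139 ± 13.0 CPM in Lenti-Klf4 and 61.1 ± 3.05 CPM in Lenti-Ctrl. Akr1b1, an aldose reductase that can make PGF2α, was at 246 ± 15.5 CPM in Lenti-Klf4 and 109 ± 2.77 CPM in Lenti-Ctrl. Enzymes known from haematopoietic cells were near the floor in Lenti-Klf4, with thromboxane synthase (Tbxas1) at 0.792 ± 0.109 CPM against 32.5 ± 2.01 CPM in Lenti-Ctrl, and haematopoietic PGD synthase (Hpgds) at 1.37 ± 0.513 CPM against 18.7 ± 1.67 CPM in Lenti-Ctrl. The log2 fold changes were -5.35 for Tbxas1 and -3.79 for Hpgds, beside a median of -5.71 for the macrophage and leukocyte markers. Cbr1, a carbonyl reductase, was not called.

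Receptors for the other prostanoids and the transporters also split, with 3 of 7 tested genes higher and 3 lower (median log2 fold change 0.06). The shares over all tested genes were 37.5% and 34.7%. The exporter gene Abcc4 was higher, at 51.6 ± 3.65 CPM in Lenti-Klf4 and 26.3 ± 1.61 CPM in Lenti-Ctrl, and the prostaglandin uptake carrier Slco2a1 was lower, at 54.8 ± 7.90 CPM in Lenti-Klf4 and 137 ± 3.89 CPM in Lenti-Ctrl. Ptgfrn, encoding a membrane protein that binds the PGF receptor, and the thromboxane receptor gene Tbxa2r were lower, with log2 fold changes of -1.21 and -1.58. The prostacyclin receptor gene Ptgir (log2 fold change 1.24, adjusted p = 0.00154, edgeR) and the PGF receptor gene Ptgfr (2.41, adjusted p = 4.25e-05) were higher, and both were chosen after their values were seen. Both were low, Ptgir at 3.17 CPM in Lenti-Klf4 and 1.33 CPM in Lenti-Ctrl, Ptgfr at 3.41 and 0.630 CPM. The mRNAs of prostacyclin synthase and of its receptor moved in opposite directions, the receptor's at a far lower level. The PGD2 receptor genes Ptgdr2 and Ptgdr were near 0 in both groups (Ptgdr without a count in Lenti-Klf4).

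Of 11 tested genes of the lipoxygenases, the leukotriene pathway and Ephx2, other routes of arachidonic acid, 7 were lower and 1 was higher (median log2 fold change -1.48, the same with Alox12b at its bound). The 1 higher gene was Alox12b, with 180 counts in Lenti-Klf4 and 0 in Lenti-Ctrl. It passed the filter only through its Lenti-Klf4 counts, so that call is no support. Over all tested genes, 34.7% were lower and 37.5% higher, with a median of 0.03. Alox5, encoding 5-lipoxygenase, was at 0.273 ± 0.165 CPM in Lenti-Klf4 and 5.66 ± 0.613 CPM in Lenti-Ctrl, and its activating protein Alox5ap was at 0.874 ± 0.202 CPM in Lenti-Klf4 and 30.7 ± 0.597 CPM in Lenti-Ctrl. Ltc4s, the leukotriene C4 synthase gene, had a log2 fold change of -2.10, and Ephx2, a soluble epoxide hydrolase of the cytochrome P450 branch, of -1.41. Aloxe3 and Ltb4r2 were not called. Alox5, Alox5ap and Ltc4s are known mainly from myeloid cells, whose markers were lower in the same libraries, and the part of those markers was not tested.

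Downstream of the EP receptors, cyclic AMP signalling genes were lower for 21 of 31 tested genes and higher for 6 (median log2 fold change -0.50). Over all tested genes, 34.7% were lower and 37.5% higher, with a median of 0.03. The adenylyl cyclase genes Adcy3 and Adcy7, which make cyclic AMP, had log2 fold changes of -2.25 and -2.68, and Pde3a, a phosphodiesterase that degrades it, of -3.30. Prkar2b, a regulatory subunit of protein kinase A, was higher, at 138 ± 8.95 CPM in Lenti-Klf4 and 14.3 ± 1.66 CPM in Lenti-Ctrl. Crtc1 and Prkar2a were not called. Genes known to be induced by cyclic AMP had no common direction, with 3 of 7 higher and 3 lower (median -0.28). Nr4a1 and Sik1 were higher, with log2 fold changes of 1.59 and 0.52, Per1 and Rgs2 were lower, with -0.89 and -1.11, and Nr4a3 was not called.

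**Figure D4:**
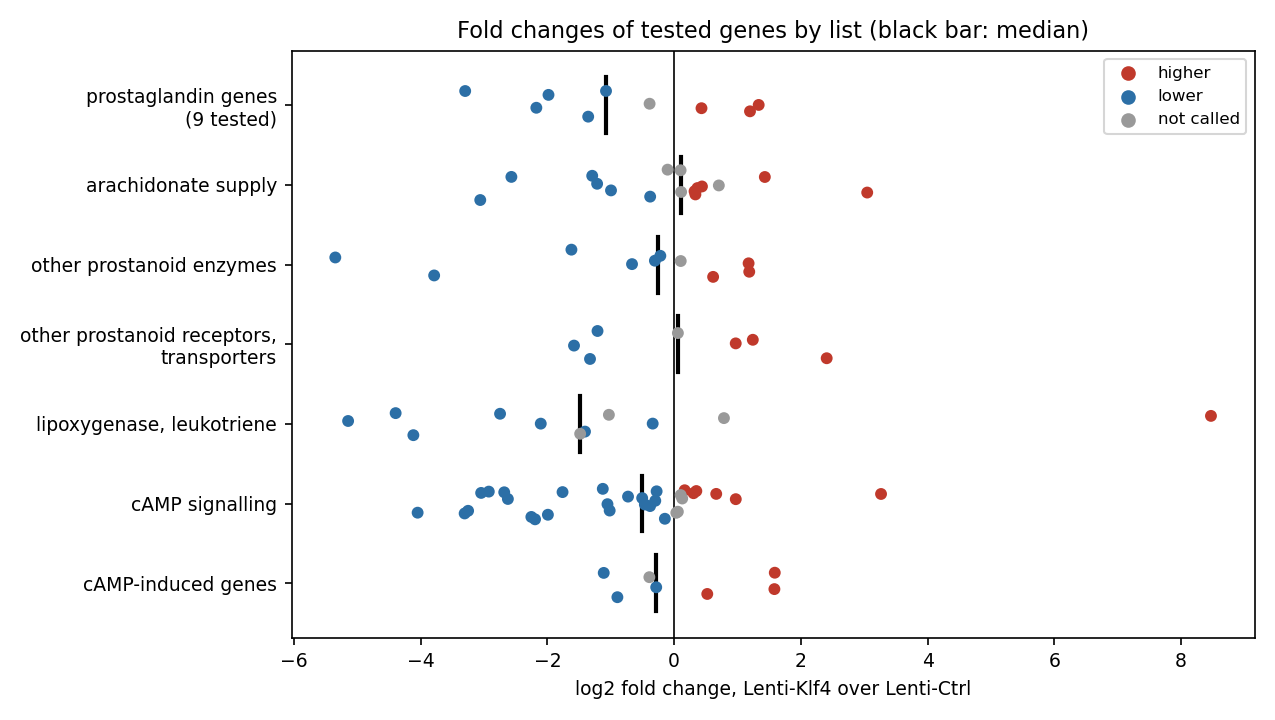
Log2 fold change of Lenti-Klf4 over Lenti-Ctrl (x axis) for each tested gene of the prostaglandin list and 6 related lists (rows); red is called higher, blue called lower, grey not called, and the black bar is the list's median. The medians run from -1.48 for the lipoxygenase and leukotriene list to 0.11 for arachidonate supply, and the point at 8.47 is Alox12b, which had no counts in Lenti-Ctrl, so its fitted value is no bound.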

How the data were processed

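The authors deposited 1 table with a raw count and an FPKM value per gene and library, and a DESeq2 table whose log2 fold changes, p-values and adjusted p-values are cited as the authors' deposited table. Its mean signal (counts over size factors) and its test statistic, a score, as deposited by the authors, were not used. Build GRCm39 and the tools StringTie 2.1.6, HISAT2 2.2.1, cutadapt 1.9 and DESeq2 are listed in the submitters' processing notes. The sources used here do not say how reads were counted or by which strand, although per the labels' protocols the libraries were strand-marked and made from polyadenylated RNA. Those steps can split reads between overlapping genes.

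The counts entered edgeR 4.0.16 under R 4.3.3 (filterByExpr with a minimum count of 10, TMM, quasi-likelihood F test, group as the only term). CPM and SD are over 4 libraries per group. SE is the log2 fold change over the root of F. Alternatives used DESeq2 1.42.0 and limma 3.58.1. The test was tested on simulated data. Libraries were grouped by their titles, and the alternatives changed the scaling, the filter, the tool, the unit or left out 1 library. Named pathway genes are, per list, the 4 lowest adjusted p-values at most and up to 2 abundant genes not called. Of the listed symbols, Akr1b3 was matched by Ensembl ID to Akr1b1, and Pla2g10, Alox8, Cyp3a11, Fcer1a and Gp9 had no match. Members and lists were chosen with earlier results of these data known. A further overlap between genes is not reported here. Drawings used matplotlib 3.10.9.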

Additional observations from a re-analysis of the deposited data

Results flagged for a closer look

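Each of the 10 genes was examined in both groups, 20 groups of 4 libraries, for a library whose gap to its nearest neighbour took most of the group's range. Chance marks about 1 in 20 such groups. Ptgs2 was at 214 CPM in Lenti-Klf4 replicate 1, above the other three. Ptger1 was at 3.02 CPM in Lenti-Klf4 replicate 2, and Ptger3 at 1.77 CPM in Lenti-Klf4 replicate 4, each the highest of its group. Ptgds was at 0.0492 CPM in Lenti-Ctrl replicate 1, the only Lenti-Ctrl library with counts of that gene. With no counts in the others, its gap fills the range whatever its count, so the chance rate does not apply to it.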

How the results depend on the processing

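The 9 tested prostaglandin genes kept their sign in all 15 alternatives, and Ptgs1, Ptgs2, Ptges, Ptgis, Hpgd, Ptger2 and Ptger3 were called in each. Genes called higher and lower, 3 and 5 of the 10, came to 2 to 4 and 5 to 6 with 1 library left out, Ptgds included where it passed the filter. Ptger4 was not called with DESeq2's size factors in edgeR (adjusted p = 0.0502), without a filter (0.0515) or with a replicate block (0.0622), which changed no other prostaglandin gene's call and gave 12918 genes called against 13307. Same-numbered libraries deviated together at correlations of 0.00553 to 0.0330, and differently numbered ones at -0.0325 to 0.0187. The sources used here do not say whether same-numbered libraries share a source, and correlations this weak cannot decide it. Ptgds had a log2 fold change of 4.94 without the filter (adjusted p = 0.00198). It passed the filter in 5 fits that left out 1 library only through its Lenti-Klf4 counts, so those calls are no support. Its log2 fold changes there were 4.55 to 5.21, and 8.01 without Lenti-Ctrl replicate 1, which left no Lenti-Ctrl counts and gives no bound. On log2(FPKM + 1) the change of Ptger2 was -0.96 and that of Ptger3 -0.53, a scale that compresses genes near or below 1 FPKM. Scaling by library totals alone shifted the median log2 fold change by 0.19, with 8328 genes called higher and 5172 lower, against 6914 and 6393. The related lists had 22 genes higher and 46 lower, with 27 and 40 under library totals, and 21 to 23 and 45 to 46 with 1 library left out. The ratio of Ptgs1 to Ptgs2 FPKM was 2.23 to 2.34 in Lenti-Klf4 and 0.417 to 0.430 in Lenti-Ctrl with 1 library left out. Depth limits Ptgds most, with 132 counts in Lenti-Klf4 and 4 in Lenti-Ctrl.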

Other observations

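The antisense transcripts Ptgs2os and Ptgs2os2 lie beside Ptgs2 and were chosen after their values were seen. Ptgs2os is annotated on the minus strand, and its annotated start lies 68 bases upstream of Ptgs2. Ptgs2os had 179 counts in Lenti-Klf4 and 367 in Lenti-Ctrl and was lower like Ptgs2 (log2 fold change -1.24, SE 0.328, adjusted p = 0.00458, edgeR). Ptgs2os2, 50816 bases downstream, was at 7.89 ± 1.01 CPM in Lenti-Klf4 and 0.825 ± 0.123 CPM in Lenti-Ctrl (SD, n = 4 each). Its log2 fold change was 3.26 (SE 0.173, adjusted p = 3.40e-09, edgeR), opposite in direction to Ptgs2, with no overlap between the groups.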
